A study of Mus musculus with 13 samples.

Results

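The Obox genes Obox1, Obox2, Obox3, Obox5 and Obox6 were followed in single mouse oocytes. The members were chosen by symbol, and all 5 were found among the 18939 genes with counts and among the 49686 genes with FPKM values. The files held 2 more symbols that begin with Obox, Obox7 and Obox8, which are given beside the members. GV oocytes, arrested at the germinal vesicle stage of meiosis I, came from C57BL/6 females of 3 to 4 weeks, 48 h after PMSG, the hormone that stimulates follicle growth. Every oocyte of all groups was injected with FBL-GFP mRNA, which labels the nucleolus, and kept for 6 h in Cilostamide, an inhibitor of the phosphodiesterase whose activity lets meiosis resume. Oocytes were sorted by the pattern of FBL-GFP into NSN (non-surrounded nucleolus) and SN (surrounded nucleolus). They were taken at GV, or after release and culture to MII, the metaphase arrest of the mature egg. The groups held 3 SN GV, 3 NSN GV, 4 SN-MII and 3 NSN-MII oocytes, each library being 1 oocyte. The oocytes were matured in culture after injection, and uninjected or ovulated oocytes were not analysed here.

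Obox stands for oocyte-specific homeobox. The genes encode PRD-like homeodomain proteins, a class of DNA-binding transcription factors with fast-evolving members, and lie in a cluster of copies that arose by duplication in rodents. Mouse oocytes store transcripts of several of them, among them Obox1, Obox2, Obox5 and Obox7, while Obox3 is known for its transcription in the early embryo. The family is known for overlapping roles when the embryo switches on its own genome after fertilization.

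Obox2, Obox1 and Obox5 were among the most abundant transcripts of every oocyte. Obox3 was low but had counts above the limit of detection in every oocyte, and Obox6 was near that limit. No member differed between NSN and SN oocytes by the test, at GV or at MII. Obox5 was higher in MII than in GV oocytes, by 0.54 ± 0.15 (SE) on the log2 scale. Obox1 and Obox2 were higher by 0.36 ± 0.15 and 0.41 ± 0.16, with adjusted p-values close to the threshold, and the size of all 3 differences depended on how the libraries were scaled.

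The copies lie on chromosome 7 of GRCm38 (mm10) and were placed with the GENCODE M21 annotation. The spans are those of the annotated genes, exons and introns included. Obox2 spans chr7:15388721-15398545 and Obox5 spans chr7:15750131-15759800, both on the plus strand. Obox1 spans chr7:15388948-15556866 on the plus strand, and its span overlaps that of Obox2 by 9598 bases on the same strand. The main Obox1 transcript is shorter than that span, at chr7:15546982-15556866. Obox3 spans chr7:15479825-15639902 on the minus strand and overlaps Obox1 by 77042 bases. Obox6 spans chr7:15833241-15839678 on the minus strand. Obox7 spans chr7:14659496-14665996 and Obox8 spans chr7:14331436-14333557, upstream of the 5 members.

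The similarity of the copies limits what a level means. The transcripts of Obox1 and Obox2 were identical at 95.7% of aligned positions. Of all stretches of 50 bases in the annotated Obox1 transcripts, 42.6% were found in no other gene and 56.4% were shared with Obox2. For Obox2, 34.9% were found nowhere else. The share was higher for Obox3 (79.8%), Obox5 (81.9%), Obox7 (78.9%) and Obox6 (94.98%), and it was 100% for Obox8. RSEM divides reads that map to several genes, which leaves estimated counts that need not be whole. The counts of Obox1 and Obox2 were not whole in 13 of 13 libraries, those of Obox3 and Obox5 in 4 libraries each, and those of Obox6 in 0. The split of reads between Obox1 and Obox2 is therefore uncertain, and no strand-specific counting is stated for the overlap of Obox1 with Obox3.

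The sequences around the RefSeq starts of the copies are shown. Of these copies 3 were abundant, and Obox3, which shares part of this sequence, was not. RefSeq windows on GRCm38.p6 ran from 250 bases before to 50 bases after the annotated start. They were given for 4 of the 5 members, Obox6 being without one, and for Obox7. RefSeq and GENCODE M21 place some starts differently. The main GENCODE transcript of Obox1 starts at base 15546982, before its window, so that window lies within the span of this transcript. That of Obox2 starts at base 15388721, inside its window. In Obox2 the CAAGTG lies after the RefSeq start, at position 25. The label promoter below names the RefSeq window only. Capitals mark the letters CAAGTG, a form of the E-box CANNTG that basic helix-loop-helix factors bind, and TATATAA, a form of the box found before many start sites.
Obox1 promoter, chr7:15547007-15547306, plus strand: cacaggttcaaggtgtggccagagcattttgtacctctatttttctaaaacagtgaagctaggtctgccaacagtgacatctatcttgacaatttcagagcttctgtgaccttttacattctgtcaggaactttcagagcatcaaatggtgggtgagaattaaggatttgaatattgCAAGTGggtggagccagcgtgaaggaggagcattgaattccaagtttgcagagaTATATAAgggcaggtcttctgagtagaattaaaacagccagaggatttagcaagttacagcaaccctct
Obox2 promoter, chr7:15388601-15388900, plus strand: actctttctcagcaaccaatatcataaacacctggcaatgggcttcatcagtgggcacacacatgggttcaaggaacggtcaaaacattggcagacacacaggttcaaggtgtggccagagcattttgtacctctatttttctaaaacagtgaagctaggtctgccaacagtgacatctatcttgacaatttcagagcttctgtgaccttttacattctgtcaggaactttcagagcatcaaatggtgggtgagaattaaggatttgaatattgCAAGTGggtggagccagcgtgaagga
Obox5 promoter, chr7:15750120-15750419, plus strand: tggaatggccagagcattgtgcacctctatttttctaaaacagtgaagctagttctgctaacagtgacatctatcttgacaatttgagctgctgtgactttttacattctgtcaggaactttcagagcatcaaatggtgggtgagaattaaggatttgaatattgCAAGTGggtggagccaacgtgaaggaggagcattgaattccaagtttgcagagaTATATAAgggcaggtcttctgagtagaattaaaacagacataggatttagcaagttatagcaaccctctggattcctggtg
Obox3 promoter, chr7:15639728-15640027, minus strand: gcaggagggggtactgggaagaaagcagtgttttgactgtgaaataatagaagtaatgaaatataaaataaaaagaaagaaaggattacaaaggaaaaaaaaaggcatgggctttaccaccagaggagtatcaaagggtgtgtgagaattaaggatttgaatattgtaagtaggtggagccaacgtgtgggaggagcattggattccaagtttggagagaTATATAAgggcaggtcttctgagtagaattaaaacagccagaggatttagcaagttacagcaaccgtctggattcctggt

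Both strands were searched. CAAGTG was in the windows of Obox1, Obox2, Obox5 and Obox7 and not in that of Obox3, against 13.6% of 32851 windows of the same length. Every CAAGTG is also counted as CANNTG, which was in 72.3% of all windows. TATATAA was in the windows of Obox1, Obox3, Obox5 and Obox7, against 3.24% of all windows. In the Obox2 window CAAGTG starts at base 275 of 300, so the stretch that holds TATATAA in the other copies lies beyond its end, and whether Obox2 has it was not read. TAATCC, which homeodomain proteins such as OTX2 and CRX bind, was in the window of Obox3 alone among the 5, against 7.06% of all. TAATTG (8.0% of all windows) and TAATTA (5.29%) were in none of the 5, and CCAAT (37.4%) was in those of Obox2, Obox3 and Obox7. A run of 25 bases, gtgagaattaaggatttgaatattg, was in all 5 windows and in no other window of the table. The windows of Obox1 and Obox2 shared 203 aligned bases with 100% identity, and those of Obox5 and Obox7 matched at 97.1% of 273 positions. These are descriptions of copied sequence, and no factor's binding was measured.

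The libraries held 7140416 to 8846287 estimated counts and 11593 to 13342 genes with a count. Of 12 oocyte markers, such as Gdf9 and Zp3, 12 had counts in every group, with a summed level of 18395 to 29560 CPM. Of 16 cumulus and granulosa markers, 10 to 13 had a count in a group, with a summed level of 61.6 to 92.5 CPM at GV and 98.6 to 189 CPM at MII, and Foxl2, Ptx3 and Fst were at 0 in all groups. Cyp19a1 made up most of that sum, with group means of 47.1 to 112 CPM, and the part of these transcripts in the differences between stages was not tested. Values below are CPM, in which counts are set against the library size scaled by TMM, a correction for differences in RNA composition, unless FPKM is named. Each is relative to the rest of the RNA of that oocyte, so a level cannot show how much RNA the oocyte held.

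Obox2 was the most abundant member. FPKM, which divides by transcript length, allows levels to be compared between genes. Over 13 oocytes Obox2 averaged 1829 ± 300 FPKM (SD), Obox1 1102 ± 154 and Obox5 700.3 ± 116. Obox2 ranked between 24 and 48 of all genes in each oocyte, Obox1 between 47 and 102, and Obox5 between 77 and 204. Among 215 listed homeobox genes with counts, Obox2 ranked 1, Obox1 ranked 2 and Obox5 ranked 4 by mean FPKM. Meis2, a TALE homeobox gene, ranked 3 with a mean of 828.8 FPKM, and Nobox, which oocytes need for early follicle growth, ranked 5 with 219 FPKM. Obox7 ranked 6 with 152 ± 26.01 FPKM. Cphx1, also a homeobox gene, was kept in the list of early embryo genes and left out of this ranking. Its mean was 164 FPKM, above that of Obox7. The order Obox2, Obox1, Obox5 held in each of the 13 oocytes in FPKM.

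The low members stood far below. Obox3 averaged 1.56 ± 0.52 FPKM and Obox6 0.73 ± 0.46 FPKM, and Obox8 averaged 0.37 ± 0.29 FPKM. These neighbours in the order overlapped: Obox3 ranged from 0.68 to 2.62 FPKM, Obox6 from 0.10 to 1.75 FPKM, and Obox8 from 0.11 to 1.12 FPKM. Obox1, at 1102 FPKM, and Obox3, at 1.56 FPKM, are neighbours in the cluster and lie on opposite strands.

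**Figure D1:**
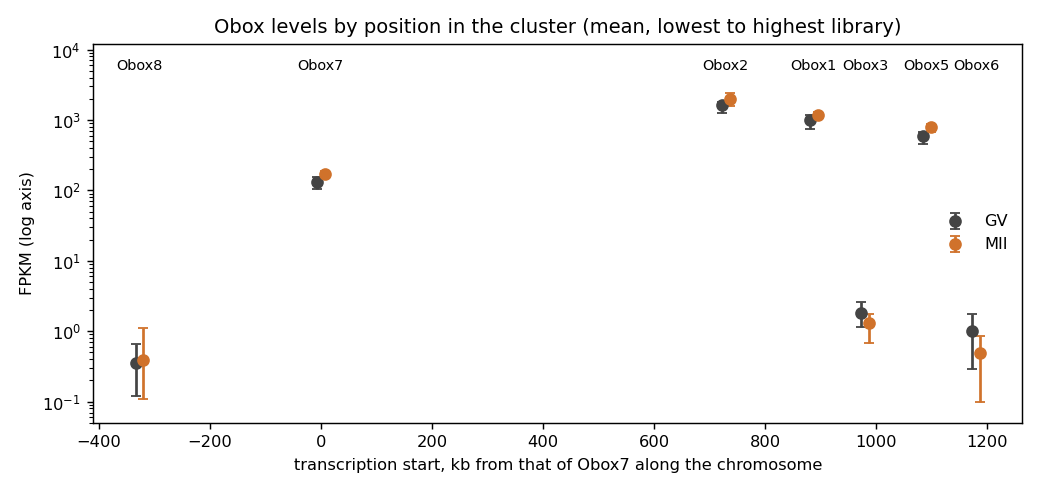
FPKM of each Obox gene on a log axis against the position of its main transcript's start, in kb from the start of Obox7. Points are means of the 6 GV or 7 MII oocytes, shifted sideways by stage so that they can be told apart, and bars run from the lowest to the highest oocyte; Obox2, Obox1 and Obox5 lie far above Obox3 and Obox6, which start between or beside them.

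The counts behind these levels differ as much. Obox2 had 11988 to 24065 counts per library and Obox5 5757 to 11228, so counting error was small beside the spread between oocytes. Obox3 had 13 to 32 counts and Obox6 1 to 18. A count of 13 has an exact Poisson interval of 6.92 to 22.2 at the 95% level, and the Obox6 count of 1 in NSN-MII oocyte 2 one of 0.025 to 5.57. The limit that a count of 0 allows, 3 counts, corresponded to 0.315 to 0.506 CPM. These intervals cover counting error only, since SMART-seq2 reads carry no molecular identifiers.

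In SN GV oocytes Obox2 was at 2118, 2129 and 1808 CPM. In NSN GV oocytes it was at 1259, 2173 and 1938 CPM. In SN-MII oocytes it was at 2751, 2413, 2665 and 3278 CPM, and in NSN-MII oocytes at 1893, 1934 and 3085 CPM. All 4 SN-MII oocytes lay above every GV oocyte, whereas 2 of the 3 NSN-MII oocytes lay within the GV range. NSN GV oocyte 1 was the lowest and SN-MII oocyte 4 the highest.

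Obox1 was at 1257, 1316 and 1026 CPM in SN GV oocytes and at 701, 1209 and 1074 CPM in NSN GV oocytes. At MII it was at 1450, 1397, 1508 and 1669 CPM in SN oocytes. In NSN-MII oocytes it was at 1162, 1157 and 1592 CPM. The order of the oocytes was close to that of Obox2, with the same oocytes lowest and highest.

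Obox5 was at 1102, 1019 and 854 CPM in SN GV oocytes and at 605, 1024 and 915 CPM in NSN GV oocytes. It was at 1489, 1298, 1378 and 1464 CPM in SN-MII oocytes. In NSN-MII oocytes it was at 1040, 1246 and 1518 CPM. For Obox5, the oocytes of MII lay above those of GV within each type, and over all oocytes only NSN-MII oocyte 1 fell within the GV range. No member was separated over all oocytes, against 47.4% of genes.

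Obox7 stood at a lower level. It was at 201, 187 and 123 CPM in SN GV oocytes and at 129, 160 and 177 CPM in NSN GV oocytes. At MII it was at 248, 238, 265 and 270.3 CPM in SN oocytes and at 186, 199.9 and 235 CPM in NSN oocytes. The NSN-MII oocytes were all below the SN-MII oocytes.

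Obox3 was at 1.66, 1.89 and 2.87 CPM in SN GV oocytes and at 3.15, 3.12 and 3.66 CPM in NSN GV oocytes. At MII it was at 3.45, 3.21, 2.50 and 4.36 CPM in SN oocytes. In NSN-MII oocytes it was at 1.55, 2.97 and 3.21 CPM. At GV the NSN and SN oocytes did not overlap, and at MII they did.

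Obox6 was at 0.38, 1.30 and 1.68 CPM in SN GV oocytes and at 1.05, 0.87 and 2.27 CPM in NSN GV oocytes. It was at 0.66, 0.77, 1.18 and 0.68 CPM in SN-MII oocytes and at 0.59, 0.12 and 0.84 CPM in NSN-MII oocytes. The highest values were in GV oocytes, and SN GV oocyte 1 and NSN-MII oocyte 2 were at or under 3 counts. Obox8 had 1 to 10 counts per library, and no fold is given for it.

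**Figure D2:**
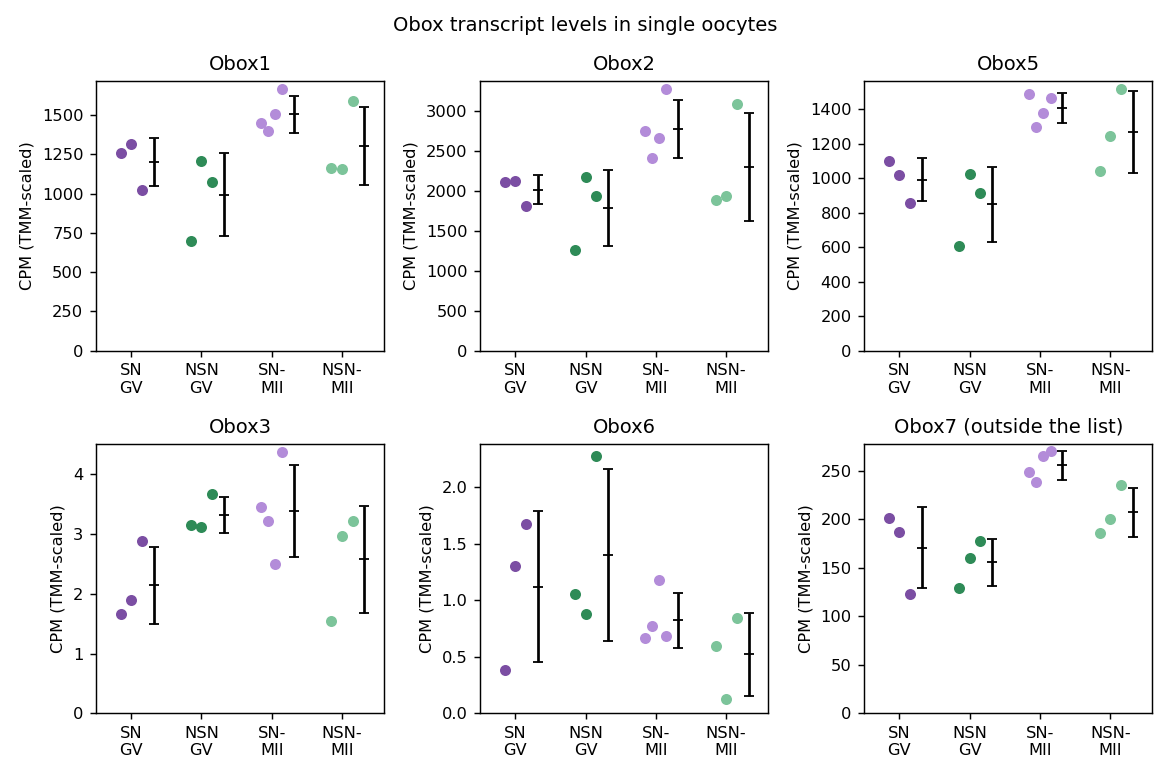
Obox transcript levels in CPM, scaled by TMM, in 3 SN GV, 3 NSN GV, 4 SN-MII and 3 NSN-MII oocytes, with 1 panel for each gene and each axis starting at 0. Points are single oocytes and the bar beside them is the mean ± SD; for Obox2, all 4 SN-MII oocytes, from 2413 to 3278 CPM, lie above the GV oocytes, which reach 2173 CPM.

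NSN and SN GV oocytes were compared because they differ in nucleolar activity and transcription before meiosis resumes. The 3 abundant members had lower means in NSN GV oocytes, and neither they nor Obox3 and Obox6 passed the test. Obox2 averaged 1790 ± 474 CPM (SD, n = 3) in the former and 2019 ± 182 CPM (n = 3) in the latter. The difference was -0.17 ± 0.18 (SE) on the log2 scale for Obox2, -0.26 ± 0.19 for Obox1 and -0.22 ± 0.18 for Obox5. In each case NSN oocytes 2 and 3 lay within or beside the SN range, and NSN oocyte 1 was below it. The library of NSN oocyte 1 had the highest TMM factor, 1.26. Without NSN GV oocyte 1 the difference of Obox2 was -0.01, that of Obox5 -0.06 and that of Obox1 -0.10.

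Obox3 averaged 3.31 ± 0.31 CPM in NSN and 2.14 ± 0.64 CPM in SN GV oocytes, a difference of 0.64 ± 0.53 on the log2 scale. Obox6 differed by 0.31 ± 0.77. In this comparison 0 of 5 members passed the quasi-likelihood test of edgeR after Benjamini-Hochberg adjustment, and so did 0% of the 10839 genes tested. At an unadjusted p under 0.05 there were 190 genes, none of them a member, and DESeq2 also called 0 genes. Obox3 was the only member whose NSN and SN oocytes did not overlap, and 3.11% of all genes tested were separated in that direction. A standard error of 0.18 leaves room for differences of this size in either direction.

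NSN-MII and SN-MII oocytes were compared to see whether the types differ once meiosis I is complete. The means of Obox1, Obox2, Obox3 and Obox5 were all lower in NSN-MII oocytes, and none of the 4 passed the test. For Obox2 the 3 NSN-MII oocytes averaged 2304 ± 677 CPM (SD) and the 4 SN-MII oocytes 2777 ± 364 CPM, a difference of -0.28 ± 0.19 (SE) on the log2 scale with an adjusted p of 0.713 by edgeR. Obox1 differed by -0.21 ± 0.15 (adjusted p = 0.737, edgeR), Obox5 by -0.16 ± 0.15 (0.825) and Obox3 by -0.40 ± 0.55 (0.900). Obox6 was too low at MII to enter the fit. Of 10028 genes in this fit 0.259% passed, 1 of them higher and 25 lower in NSN-MII oocytes, with 941 at an unadjusted p under 0.05.

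NSN-MII oocyte 3 stood apart from the other NSN-MII oocytes for the abundant members, at 3085 CPM of Obox2 against 1893 and 1934. Its TMM factor, 0.799, was the lowest of all libraries, and its 10 most abundant genes held 12.1% of its counts, the highest share, and their part in the result was not tested. Without it the difference of Obox2 was -0.53, with an adjusted p of 0.0549 by edgeR, and that of Obox1 was -0.37 with 0.126. Obox7 differed by -0.31 ± 0.15 (adjusted p = 0.546, edgeR), with no overlap of the types, as for 5.56% of all genes in that direction. With library totals the types did not overlap for Obox1 either, and the share of all genes separated under that scaling was not counted.

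The third question was which transcripts change in relative level between GV and MII. Once meiosis resumes, stored transcripts are kept, lengthened at their poly(A) tails or removed, while NSN oocytes still transcribe at GV. Of the 5 members 3 were called, all higher at MII, while of all 11375 genes in the fit 31.7% rose, 36.9% fell and 68.6% passed in all. Obox5 averaged 920 ± 178 CPM (SD, n = 6) before and 1348 ± 169 CPM (n = 7) after maturation, which is a log2 fold change of 0.54 ± 0.15 (SE) with an adjusted p of 0.00348 by edgeR. Obox2 averaged 1904 ± 345 and 2574 ± 532 CPM, a log2 fold change of 0.41 ± 0.16 (adjusted p = 0.0309, edgeR). Obox1 averaged 1097 ± 223 and 1419 ± 199 CPM, a log2 fold change of 0.36 ± 0.15 (adjusted p = 0.0399, edgeR).

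These are modest changes in this comparison. The log2 fold changes of Obox1, Obox2 and Obox5 lay at the 60.1, 61.3 and 64.6 percentile of all genes tested. Obox7 was called too, at 0.50 ± 0.15 (adjusted p = 0.00624, edgeR). Obox3 was at 0.14 ± 0.38 (0.754) and Obox6 at -0.93 ± 0.62 (0.190), neither called. The median over the 5 members was 0.36, against -0.10 over all genes tested.

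**Figure D3:**
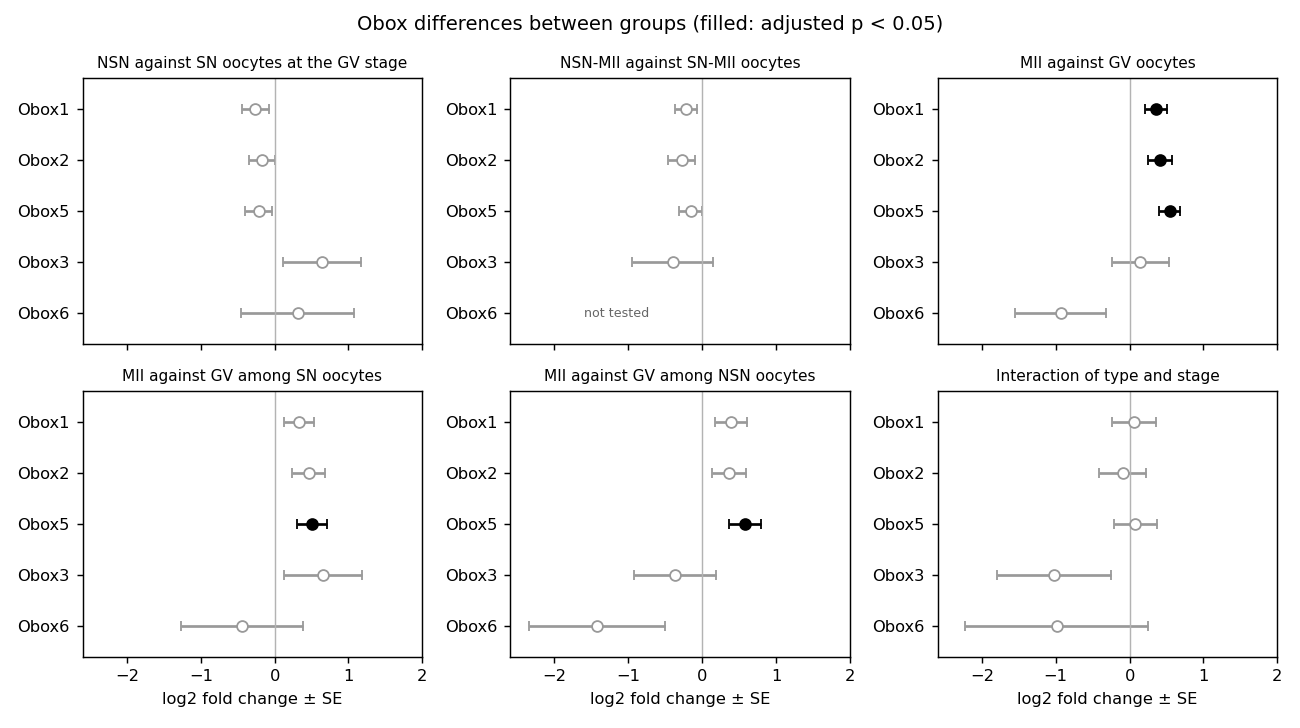
Log2 fold change ± SE of each member in the 6 comparisons, by edgeR. Filled points have an adjusted p under 0.05: Obox1, Obox2 and Obox5 over all oocytes and Obox5 within each type; Obox6 did not enter the fit of MII oocytes alone.

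How the libraries are scaled bears on these values. The TMM factors were 1.06 to 1.26 in GV and 0.799 to 1.01 in MII libraries, so they raise MII levels relative to GV. With library totals alone, the log2 fold change of Obox5 was 0.25 ± 0.10 and still called (adjusted p = 0.0481, edgeR), that of Obox2 was 0.11 ± 0.11 (adjusted p = 0.394, edgeR) and that of Obox1 0.06 ± 0.10 (0.596). The same scaling moved the median of all genes by -0.29, from -0.10 to -0.39, and of the genes called 36.8% were then higher against 46.2% with TMM. Relative to the median of all genes, Obox5 was 0.64 higher with TMM and 0.64 with library totals, Obox2 0.51 and 0.50, and Obox1 0.46 and 0.46. This change of scaling shifts all genes by nearly the same amount, so the values relative to the median were bound to stay alike. With DESeq2 they were 0.79 for Obox5, 0.67 for Obox2 and 0.61 for Obox1. That median, -0.29, was taken over all genes with a count, without the filter on low counts, and with edgeR and no filter it was -0.26. The values with DESeq2 are therefore set against a different set of genes from those above.

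The calls of Obox1 and Obox2 depended on the test and filter. With DESeq2 the adjusted p of Obox1 was 0.0868 and that of Obox2 0.0659, and with limma on log2(FPKM + 1) they were 0.05003 and 0.0639. With limma on log2(FPKM + 0.1) Obox1 kept its call (0.0475) and Obox2 did not (0.0633), and with edgeR and no filter Obox2 kept its call (0.0354) and Obox1 did not (0.0576). Obox2 lost its call without SN GV oocyte 3, NSN GV oocyte 1, SN-MII oocyte 4 or NSN-MII oocyte 3, and Obox1 without any of these or without SN GV oocyte 1, SN-MII oocyte 1 or SN-MII oocyte 3. Obox5 was called in every one of these alternatives, and without any single library its adjusted p by edgeR lay between 0.00137 and 0.0128.

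**Figure D4:**
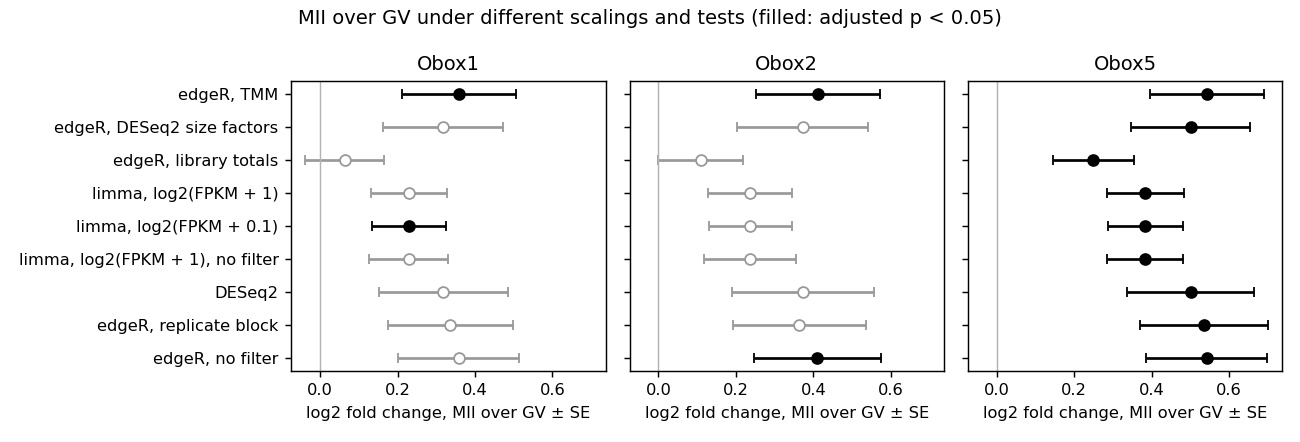
Log2 fold change ± SE of Obox1, Obox2 and Obox5, MII over GV, with different choices of scaling, test and filter; filled points have an adjusted p under 0.05. Obox5 is filled in every row, from 0.25 with library totals to 0.54 with TMM, while Obox1 is filled for edgeR with TMM and for limma on log2(FPKM + 0.1), and Obox2 for edgeR with TMM, with and without the filter.

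The sign for Obox3 turned with the scaling and with the unit. With TMM it was 2.73 ± 0.78 CPM at GV and 3.03 ± 0.87 CPM at MII, and in the deposited FPKM 1.84 ± 0.54 and 1.32 ± 0.38. Its log2 fold change was 0.14 with TMM, -0.17 from the same counts with library totals and -0.31 by limma on log2(FPKM + 1), and none of these was called. For a gene counted over the same transcripts, the ratio of counts to FPKM keeps a fixed relation to that of other genes. Relative to Obox2, that ratio was 1.33 at GV and 1.33 at MII for Obox5. For Obox3 it was 1.31 at GV, with a range of 0.993 to 1.64, and 1.79 at MII, with a range of 1.58 to 1.95. Obox3 has 8 annotated transcripts of 528 to 2287 bases, and which of them the reads came from was not tested.

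Maturation was also followed within each type. Among SN oocytes, Obox5 rose by 0.50 ± 0.20 on the log2 scale (adjusted p = 0.0414, edgeR), from 992 ± 126 CPM (SD, n = 3) to 1407 ± 86.8 CPM (n = 4). It was the only one of 5 members called, where 25.1% of genes were called higher and 56.3% in all. Obox2 was at 0.46 ± 0.22 (0.0858), Obox1 at 0.33 ± 0.20 (0.179), Obox3 at 0.65 ± 0.53 (0.310) and Obox6 at -0.44 ± 0.83 (0.672). The SN GV and SN-MII oocytes did not overlap for Obox1, Obox2 and Obox5, as for 28.9% of genes in that direction. With library totals only Obox5 of these was separated, and the share of all genes was not counted for that scaling. Obox5 lost its call among SN oocytes when any single SN oocyte or NSN-MII oocyte 2 was left out, and with library totals (adjusted p = 0.233, edgeR).

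Among NSN oocytes, Obox5 rose by 0.58 ± 0.21 (adjusted p = 0.0287, edgeR), from 848 ± 218 CPM (SD, n = 3) to 1268 ± 240 CPM (n = 3). Here too it was the only member called, where 25.5% of genes were called higher and 56.3% in all. Obox1 was at 0.39 ± 0.22 (0.133), Obox2 at 0.36 ± 0.23 (0.196), Obox3 at -0.37 ± 0.56 (0.599) and Obox6 at -1.42 ± 0.92 (0.200). GV and MII oocytes did not overlap for Obox5, higher at MII, and for Obox6, lower at MII, as for 27.8% and 33.2% of all genes in those directions. Without NSN GV oocyte 1 the log2 fold change of Obox5 was 0.39 (adjusted p = 0.125, edgeR), and its call was also lost without NSN-MII oocyte 2 or 3. With library totals Obox5 was at 0.29 (adjusted p = 0.128, edgeR) and its GV and MII oocytes overlapped, whereas those of Obox3 were then separated, lower at MII. The median log2 fold change of all genes was -0.40 under that scaling, and the share of genes separated was not counted. With only the NSN libraries in the fit Obox5 was at 0.57 (0.130), not called. Obox3 was called lower among NSN oocytes by limma, at -0.66 on log2(FPKM + 1) (adjusted p = 0.0353) and at -1.05 on log2(FPKM + 0.1) (0.0487). Of the 11525 genes in these fits, 4224 and 4092 were called lower. Obox3 was not called by limma without the filter on low values (adjusted p = 0.0687) or by edgeR.

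The interaction asked whether the change from GV to MII differed between NSN and SN oocytes. No member passed, and 2 genes, 0.0176% of those tested, did, with 606 at an unadjusted p under 0.05. The interaction was 0.08 ± 0.29 on the log2 scale for Obox5, 0.06 ± 0.29 for Obox1 and -0.10 ± 0.32 for Obox2. For Obox3 it was -1.02 ± 0.77 and for Obox6 -0.99 ± 1.24. For each of these members, the abundant ones included, the SE was too large to tell an interaction of 0.06 to 0.10 in size from 0.

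For Obox2, Obox1 and Obox5, the share of the family's counts was steadier than the family's level. The 5 members together held 0.324% to 0.532% of a library's counts. Of their summed counts, Obox2 made up 48.2% ± 1.7 (SD, n = 13), Obox1 27.2% ± 1.1 and Obox5 24.5% ± 1.7. Obox3 made up 0.064% ± 0.024 and Obox6 0.022% ± 0.016, so the shares of these low members varied widely relative to their means. The sum averaged 3925 ± 739 CPM at GV and 5345 ± 882 CPM at MII, a ratio of 1.36 with TMM and 1.11 with library totals. Between types the ratio of NSN to SN was 0.863 at GV and 0.857 at MII.

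The ratio of Obox5 to Obox1 counts shifted between stages, and such a ratio within a library does not depend on scaling. It was 0.877, 0.774 and 0.832 in SN GV oocytes and 0.863, 0.847 and 0.851 in NSN GV oocytes. At MII it was 1.03, 0.929, 0.913 and 0.877 in SN oocytes and 0.895, 1.08 and 0.953 in NSN oocytes. Its mean was 0.841 ± 0.036 (SD, n = 6) at GV and 0.953 ± 0.073 (n = 7) at MII, and the 2 nearest oocytes of the stages were at 0.8767 and 0.8768. The ratio of Obox5 to Obox2 overlapped between the stages, at 0.471 to 0.520 at GV and 0.447 to 0.644 at MII, with SN-MII oocyte 4 below every GV oocyte. Since the split of reads between Obox1 and Obox2 is uncertain, the shift against Obox1 alone is a description of these estimates. The ratio of Obox1 to Obox2, whose reads are hard to separate, was 0.574 ± 0.026 at GV and 0.559 ± 0.042 at MII.

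The abundant members moved together from oocyte to oocyte. Over log2(CPM) the Pearson correlation of Obox1 and Obox2 was 0.98 among 6 GV oocytes (Spearman 0.83) and 0.99 among 7 MII oocytes (0.93). Without the 2 farthest oocytes it was 0.95 at both stages. Obox1 and Obox5 correlated at 0.98 among GV (Spearman 0.83) and 0.86 among MII oocytes (0.79), and without 2 oocytes at 0.99 and 0.63. The correlations of Obox7 with these 3 members were 0.70 to 0.91, and without the 2 farthest oocytes they ranged from -0.080 to 0.74, so those of Obox7 rest in part on these oocytes. The points share library, scaling and, for Obox1 and Obox2, reads.

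Over all 13 oocytes, the gene most like Obox1 was Obox2 (r = 0.97), followed by Dnajb4 (0.97), an HSP40 co-chaperone gene. Obox2 was most like Obox1 and Tmem171 (0.97), and Obox5 was most like Dnajb4 (0.97) and Tmem171 (0.96). Dnajb4 ranged from 305 to 703 CPM at GV and from 694 to 1166 CPM at MII, and Tmem171 from 9.24 to 47.0 and from 39.1 to 128 CPM. The 2 genes most like Obox3 were Fos (0.82) and Rwdd4a (0.78), and those most like Obox6 were Pxmp4 (0.83) and Zfp335 (0.81). Fos did not exceed 5.72 CPM in any oocyte. These are the highest correlations among all genes tested over 13 oocytes of 2 stages, and they describe a pattern only.

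Other homeobox genes were read from lists. Of 49 other PRD-class and related genes with counts, 16 could be tested between MII and GV, and 9 were called, 2 higher and 7 lower, where 68.6% of all genes were called, 31.7% higher and 36.9% lower. They had a median log2 fold change of -0.55 against -0.10 over all genes. Of 159 genes of other homeobox classes 49 were tested and 30 called, 19 higher and 11 lower, a share called near that of all genes, with a median of 0.58. With library totals the counts were 1 higher and 7 lower, and 14 higher and 13 lower. None of these genes was called between NSN and SN oocytes at either stage or in the interaction.

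The largest changes among the homeobox genes called were falls. Duxbl3 fell by 5.15 ± 0.83 (SE) on the log2 scale and Duxbl2 by 4.12 ± 0.56, with adjusted p-values of 3.44e-05 and 6.37e-06 by edgeR. These are near-identical Duxbl copies, double-homeobox genes, whose reads may be split between them. Pou2f3, a POU-class factor, was at 6.50 to 12.9 CPM at GV and at 0.169 to 1.72 CPM at MII, a log2 fold change of -3.74 ± 0.45. Isx averaged 1.70 ± 0.40 CPM at GV and 0.24 ± 0.44 CPM at MII, a log2 fold change of -3.12 ± 0.92. Its MII values ran from 0 to 1.19 CPM with a mean under the level of 3 counts, so the size of this fall is uncertain. Nobox, the abundant oocyte factor, fell by 2.39 ± 0.23, from 702 ± 151 CPM to 137 ± 85.8 CPM. Meis2, whose mean FPKM lay between those of Obox1 and Obox5, rose by 1.37 ± 0.18. Beside these values the log2 fold changes of Obox1, Obox2 and Obox5, 0.36 to 0.54, were small, and the difference between genes was not tested.

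A list of 33 genes known from the embryo's early genome activation, such as the Zscan4 genes, had 16 members tested between MII and GV. Of these 8 were called, 2 higher and 6 lower, with a median log2 fold change of -0.63 against -0.10 over all genes, and the share called was below the 68.6% of all genes. With library totals 1 was called higher and 8 lower. Again none was called between NSN and SN oocytes or in the interaction.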

How the data were processed

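RNA of 13 single oocytes was amplified by SMART-seq2, which copies RNA from the poly(A) tail, so that a change in tail length and a change in the number of transcripts cannot be told apart. The authors trimmed reads with Trim Galore 0.4.4, mapped them to mm10 with Bowtie2 2.3.5 and quantified genes with RSEM 1.2.28. Its expected counts, which the authors deposited without normalization in a table for each stage, were the values tested. Its FPKM, deposited in a single table, relate the counts to transcript length and library size. Groups came from the sample labels, which do not say whether oocytes came from separate females or which were sequenced together, so p-values measure the spread between these oocytes.

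Counts were rounded to whole numbers, filtered with filterByExpr and given TMM factors with edgeR 4.0.16 under R 4.3.3. The quasi-likelihood test was used for the 6 comparisons, with Benjamini-Hochberg adjustment over all genes tested and a threshold of 0.05 on the adjusted p. NSN and SN oocytes were compared within a stage, and the other comparisons used 1 model of all 13 libraries. DESeq2 1.42.0, limma 3.58.1 with trend on log2(FPKM + 1) or log2(FPKM + 0.1) where the mean FPKM reached 1, DESeq2's size factors, no filter and leaving out each library served as alternatives, and library totals without TMM were added after the data were seen. Simulated data were used to test only the main edgeR fit and limma on log2(FPKM + 1). No 2 libraries were copies of each other. With 3 or 4 oocytes per group the spread between oocytes, not depth, limited the precision of the abundant members, and depth that of Obox3 and Obox6.

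The genes named are the 5 members, the other Obox symbols, the 2 genes most correlated with each member over log2(CPM + 1), the 4 called homeobox genes with the largest change between stages, and any gene of the lists called between types or in the interaction. Meis2, Nobox, Cphx1 and the markers named were chosen after their values were seen. The members and lists were chosen with earlier results of these data known. Levels were compared between genes by FPKM. Transcript sequences were taken from GENCODE M21, and identities were computed with Biopython 1.88.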

Additional observations from a re-analysis of the deposited data

How the results depend on the processing

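Between NSN and SN oocytes and in the interaction, 0 members were called under every alternative run. Over all oocytes 3 members were called between MII and GV; 1 was called with DESeq2, DESeq2 size factors, library totals, the replicate block, limma on log2(FPKM + 1) and limma without a filter, 2 with no filter on counts and with limma on log2(FPKM + 0.1), and 1 to 3 when single libraries were left out. Among SN oocytes 1 member was called, 3 with only the 2 groups compared, 0 to 2 without single libraries, and 0 with DESeq2, its size factors, library totals, no filter, the replicate block or limma without a filter. Among NSN oocytes 1 was called, 2 of the 4 tested with limma on either pseudocount (Obox5 higher and Obox3 lower), 0 to 1 without single libraries, and 0 with library totals or only the 2 groups compared. In those limma fits 6920 of 11525 genes were called with a pseudocount of 1 and 6744 with 0.1. Of all genes tested between MII and GV, 8143 of 13423 were called with DESeq2 and 7463 of 11375 with library totals. Among SN oocytes, 6920 of 10722 genes were called with only the 2 groups compared and 5987 of 11375 with library totals. Among NSN oocytes, these were 5359 of 10633 and 6083 of 11375. Obox1, Obox2 and Obox5 kept their direction in the stage comparisons under all of these alternatives. The cause was not tested.

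Obox3 between MII and GV turned to -0.17 with library totals, -0.31 with limma on log2(FPKM + 1) with or without a filter, and -0.49 with a pseudocount of 0.1. Without single libraries, Obox6 between NSN and SN GV oocytes ranged from -0.18 to 0.75 and Obox7 from -0.29 to 0.016. The interaction then ranged from -0.13 to 0.23 for Obox1, from -0.37 to 0.066 for Obox2, from -0.12 to 0.23 for Obox5 and from -0.31 to 0.019 for Obox7.

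The summed level ranged from 1.27 to 1.41 (MII over GV) without single libraries and was 1.11 with library totals. Among genes with an FPKM of at least 1, the mean percentile of Obox2 was 99.7, of Obox1 99.4, of Obox5 98.9, of Obox3 9.71 and of Obox6 6.07, lower than among genes above 0 by construction. Genes called between NSN-MII and SN-MII were 221 with DESeq2, 89 without a filter, 69 in the fit of all libraries, 16 with library totals, 2 with the replicate block, 2 to 4 with limma and 2 to 233 without single libraries, against 26. In the interaction they were 43 with DESeq2, 6 without a filter and 1 to 4 with limma, against 2.

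The labels do not say that replicate numbers pair the oocytes. Deviations of same-numbered SN and NSN oocytes from their group means correlated at -0.46 to -0.21 at GV and -0.12 to 0.10 at MII. Between GV and MII, same-numbered NSN oocytes correlated at 0.19, 0.03 and 0.20, and SN oocytes at 0.01, -0.04 and 0.05. With so few oocytes per group, these values cannot settle whether a number stands for a shared female or batch. With the replicate block the call of Obox5 between MII and GV remained, those of Obox1 (adjusted p = 0.0836, edgeR) and Obox2 (0.0770) did not, and that of Obox5 among SN oocytes did not (0.102). The planned tests of Obox symbols found only in the FPKM table were not run, since there were 0 such symbols. Depth limits Obox3 and Obox6. Among SN-MII oocytes, the only group with enough oocytes, 11 tests for an outlying oocyte over levels and shares found 0. With 4 oocytes such a test flags only an extreme gap. For Obox6, SN-MII oocyte 3 lay apart by 0.794 of the range and was not flagged. The groups of NSN GV oocyte 1 and NSN-MII oocyte 3 were too small to be tested.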
